A study of Homo sapiens with 6 samples.

Results

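The 8 genes described here encode transcription factors of endoderm and lung lineages, namely FOXA1, FOXA2, FOXA3, GATA6, HNF4A, HNF4G, SOX2 and SOX9. They were chosen by name, with earlier results of these data known, and all 8 were found among the 58174 genes of the deposited table. PolyA RNA-seq had been performed on A549, an established human lung adenocarcinoma cell line, with 3 libraries of the parental population (Ctrl) and 3 of cells with a deletion in the MIR21 locus (MIR21-KO). All cells grew in the same serum-containing medium without further treatment and were collected 48 h after seeding. MIR21-KO cells had been cloned by single-cell sorting once Cas9 and paired guide RNAs had cut the locus. How many clones lie behind the 3 MIR21-KO libraries is not given in the sources used here, so differences between a clone and the parental population cannot be told apart from those of the deletion. The study describes its replicates as biological and independent, whereas the labels do not say how the cultures were separated, and the p-values measure only the spread between these libraries. MIR21-KO replicates 1 and 3 differed most among libraries of 1 group, with a chi-square per degree of freedom of 32.8 over genes, against 2.69 to 11.9 for the other pairs.

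FOXA proteins are forkhead factors that open compacted chromatin and are required for the development of liver, pancreas, gut and lung. HNF4A and HNF4G are nuclear receptors of liver, kidney and intestinal epithelium. HNF4A and FOXA2 act together at many regulatory regions of hepatocytes. GATA6 is a zinc finger factor of early endoderm and distal lung epithelium. SOX2 marks the proximal airway epithelium of the developing lung, whereas SOX9 marks its distal, branching tips.

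The deleted locus encodes hsa-miR-21-5p, an oncogenic miRNA that represses mRNAs through pairing of its seed with sites mostly in 3' untranslated regions. Its mature sequence, located at chr17:59841273-59841294 on the plus strand of GRCh38.p14 in RefSeq, is shown because the sites printed next are read against it, beside that of hsa-let-7a-5p, a miRNA with another seed, which was searched in the same way. The study reported raised levels of the whole let-7 family in MIR21-KO cells by miRNA sequencing, so the let-7a-5p shares are no neutral control. Capitals mark the seed, bases 2 to 8.
hsa-miR-21-5p: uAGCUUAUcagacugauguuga
hsa-let-7a-5p: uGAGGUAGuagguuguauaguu

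The longest annotated 3' untranslated region (GENCODE 29, GRCh38) of 3 of the 8 genes held letters complementary to the miR-21-5p seed. HNF4A and SOX2 each held 1 match to all 7 seed bases. SOX9 held 1 match to the first 6 seed bases followed by an A, and HNF4A and SOX9 each held 1 further match to these 6 bases alone. The windows are given as DNA with the matched letters in capitals, on the strand of the transcript. Each base number is that of the first letter of TAAGCT within the region.
HNF4A, chromosome 20, base 1210 of 4931: atccaggaggaATAAGCTcccagggcctg
HNF4A, base 2645 of 4931: ttttttgactcTAAGCTgacatgatatt
SOX2, chromosome 3, base 523 of 1122: gtccattgtttATAAGCTgagaatttgcc
SOX9, chromosome 17, base 155 of 2033: ttaaagacattTAAGCTAaaggcaactcg
SOX9, base 800 of 2033: gaagcatttggTAAGCTttatcatatat
No such letters were found in FOXA1, FOXA2, FOXA3, GATA6 or HNF4G, and none of the 8 genes matched let-7a-5p. Among 11645 tested protein-coding genes with an annotated region, 9.88% held a match to all 7 miR-21-5p seed bases and 27.9% a match to at least 6 of them. For let-7a-5p these shares were 11.1% and 27.5%. A match is a description of the sequence and was not tested as a binding site.

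In the RefSeq promoter table (GRCh38.p14, 250 bases before to 50 after the start), 5 of the 8 genes had an entry, and HNF4A had 2. Short motifs of lineage factors were searched on both strands. For forkhead factors the letters TGTTTAC were used. The HNF4 motif was CAAAGTC, and the motif of GATA factors was AGATAA. The letters AACAAT stood for SOX factors, and ATTGATT was the core of ONECUT sites. The promoters of FOXA1, FOXA3, GATA6 and SOX2 and the downstream promoter of HNF4A held none of these letters. The windows of the upstream HNF4A promoter are shown, with the motif in capitals, because HNF4A has separate promoters and differed most between the groups.
HNF4A upstream promoter, GATA motif, chr20:44355662-44355689: aagaatcaataAGATAAccgggcggtgg
HNF4A upstream promoter, ONECUT core on the other strand, chr20:44355654-44355682: gtgattagaagAATCAATaagataaccgg
These windows overlap. Of 35116 promoters of the same length, 10.3% held the GATA motif and 2.18% the ONECUT core. The forkhead, HNF4 and SOX motifs were held by 3.42%, 3.37% and 10.1%. Gene-level values cannot separate transcripts of the HNF4A promoters.

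Library depth, as reads recovered from the deposited values, ranged from 10631667 to 14345209. Levels are given in FPKM (fragments per kilobase of gene length, scaled to library size). For a length of 1 kb, 1 read equals 0.0731 to 0.0930 FPKM depending on the library, and the 3 reads that a count of 0 still allows equal 0.219 to 0.279 FPKM. MIR21 itself was listed at 0 in all 6 libraries. As polyA enrichment does not retain mature miRNAs, this value checks nothing about the labels. All 6 epithelial markers of A549 were detected, with a sum of 1684 to 1807 FPKM in Ctrl and 1217 to 1745 FPKM in MIR21-KO. Most of it came from KRT7, KRT8 and KRT18. E-cadherin (CDH1) fell from 8.18 to 2.86 FPKM (limma FDR 0.000175, log2 fold change −1.48). KRT18 was lower without overlap, at 673 FPKM in Ctrl and 422 FPKM in MIR21-KO (FDR 0.0153). KRT8 (484 and 414 FPKM, FDR 0.207) and EPCAM (1.19 and 0.695 FPKM, FDR 0.273) had lower means in MIR21-KO. Higher means were seen for KRT7 (507.5 and 551 FPKM, FDR 0.631) and KRT19 (88.3 and 109 FPKM, FDR 0.206). NKX2-1, the lineage factor of normal lung epithelium, had no read in any library. The sum of 8 fibroblast markers was 7.74 to 8.43 FPKM in Ctrl and 13.7 FPKM in every MIR21-KO library. THY1 rose from 2.28 to 7.15 FPKM (FDR 0.00059). COL1A1 was at 3.41 FPKM in Ctrl and 3.91 FPKM in MIR21-KO (FDR 0.334), and LUM at 2.11 and 1.88 FPKM (FDR 0.506). The other fibroblast markers were under 0.5 FPKM on average and were not tested. Of these, COL3A1 (0.112 and 0.589 FPKM) and PDGFRB (0.0235 and 0.116 FPKM) were higher in MIR21-KO without overlap. PDGFRA was at 0.0693 and 0.0636 FPKM, COL1A2 was listed at 0 in all 6 libraries, and DCN had at most 3 reads. Endothelial markers summed to at most 0.154 FPKM and immune markers to at most 5.33 FPKM, with CD3E at 0 and most of the immune sum from CD14. Their part in the results was not tested.

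Levels of the 8 factors were compared between Ctrl and MIR21-KO to describe how the lineage program of A549 differed without MIR21. Of 7 factors tested, HNF4A, FOXA3, SOX2 and FOXA2 fell and FOXA1 and SOX9 rose, while GATA6 was not called. A gene was called at an FDR under 0.01, by limma with Benjamini-Hochberg adjustment over 16006 genes of at least 0.5 FPKM on average, of which 16.0% were called. Of these genes, 7.66% were called higher and 8.38% lower in MIR21-KO. The libraries of both groups did not overlap for all 7 tested factors, as for 48.1% of all tested genes. The median log2 fold change was −0.84 over the 7 factors and −0.02 over all tested genes. HNF4A and FOXA3 were under 0.5 FPKM in MIR21-KO and passed the filter through Ctrl. In bulk RNA, fewer cells with an mRNA and less of it per cell cannot be told apart.

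**Figure D1:**
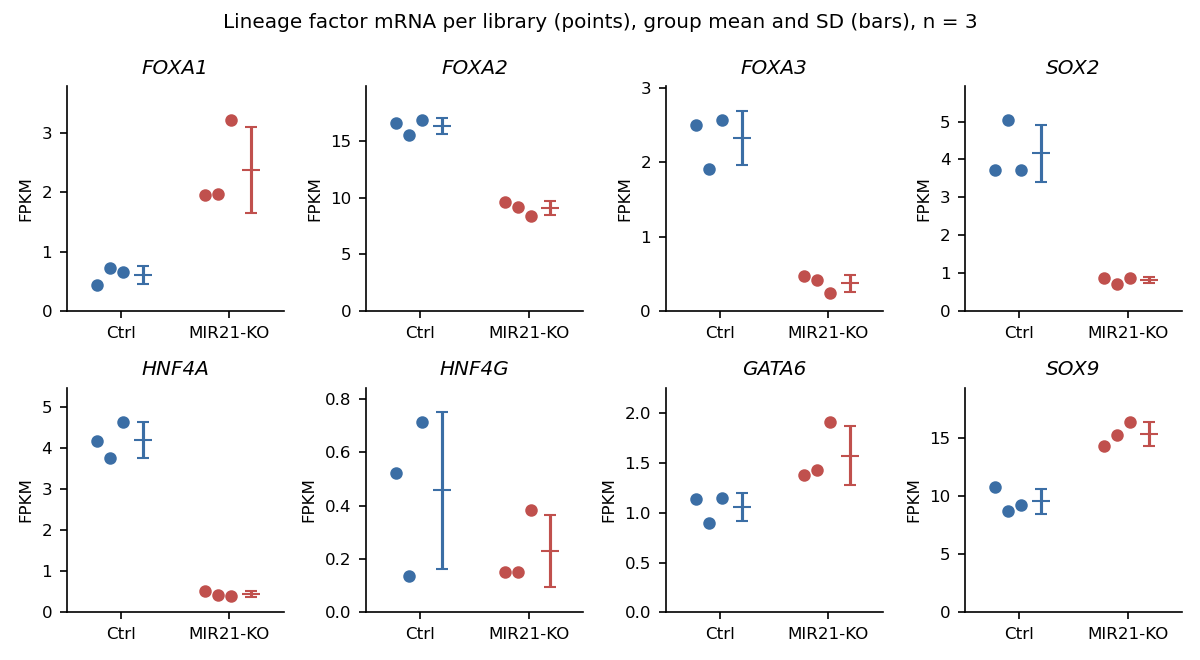
FPKM (y axis, from 0) of each factor in the 3 Ctrl and the 3 MIR21-KO libraries; points are libraries, and bars give the mean and SD. HNF4A, FOXA3, SOX2 and FOXA2 lay lower in every MIR21-KO library, FOXA1, SOX9 and GATA6 lay higher, and the HNF4G points overlapped between the groups.

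HNF4A (ENSG00000101076; chromosome 20, 44355700 to 44434596, plus strand, GRCh38), a nuclear receptor that maintains hepatocyte and gut epithelial identity, had the largest fold change of the 7 factors tested. It was measured at 4.19, 3.78 and 4.65 FPKM in Ctrl and at 0.522, 0.436 and 0.390 FPKM in MIR21-KO. These values rest on 297 to 465 reads in Ctrl and 37 to 52 in MIR21-KO, and every MIR21-KO library lay far below every Ctrl library. Its level fell 9.36-fold, from 4.21 ± 0.437 to 0.449 ± 0.067 FPKM (mean ± SD, n = 3 each). On log2(FPKM + 0.1), this was a log2 fold change of −2.97 ± 0.17 (SE; FDR 0.000107). On this scale the change of low genes is understated, and with a pseudocount of 1 it was −1.84.

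The paralog HNF4G (ENSG00000164749; chromosome 8, 75407914 to 75566843, plus strand) was near the limit of detection. Ctrl libraries held 0.523, 0.135 and 0.715 FPKM, and MIR21-KO libraries 0.153, 0.153 and 0.385 FPKM, from 7 to 47 reads. The groups overlapped, and at a mean under 0.5 FPKM the gene was not tested. Without the filter on low values the fit gave −0.65 ± 0.56 (log2 fold change ± SE; FDR 0.501). The Ctrl libraries held 32, 7 and 47 reads and thus differed widely among themselves, and no difference between the groups was detectable.

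FOXA2 (ENSG00000125798; chromosome 20, 22581005 to 22585455, minus strand), which initiates endoderm and later liver and lung programs, was the most abundant of the 8 factors in Ctrl. Its level was 16.6, 15.5 and 16.8 FPKM in Ctrl and 9.64, 9.13 and 8.41 FPKM in MIR21-KO, with 284 to 599 reads per library. The groups were well separated, with little spread within either. FOXA2 fell 1.80-fold, from 16.3 ± 0.687 to 9.06 ± 0.619 FPKM (log2 fold change −0.84 ± 0.08, FDR 0.000691).

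FOXA3 (ENSG00000170608; chromosome 19, 45863989 to 45873797, plus strand), a FOXA paralog of liver and gut, was lower still. It was measured at 2.51, 1.91 and 2.57 FPKM in Ctrl and at 0.469, 0.410 and 0.246 FPKM in MIR21-KO. The MIR21-KO values rest on 14, 11 and 7 reads, against 45 to 77 in Ctrl, and do not overlap with Ctrl. FOXA3 fell 6.21-fold, from 2.33 ± 0.365 to 0.375 ± 0.115 FPKM (log2 fold change −2.37 ± 0.26, FDR 0.00112), which narrowly missed the threshold without Ctrl replicate 3 (FDR 0.0101). With a pseudocount of 1 its log2 fold change was −1.27.

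FOXA1 (ENSG00000129514; chromosome 14, 37589984 to 37596059, minus strand), known as a cofactor of steroid hormone receptors besides its role in endoderm, differed in the opposite direction. Its level was 0.434, 0.724 and 0.661 FPKM in Ctrl, from 22 to 36 reads, and 1.95, 1.97 and 3.21 FPKM in MIR21-KO, from 96 to 166 reads. MIR21-KO replicate 3 stood above the other MIR21-KO libraries, and all 3 lay above Ctrl. FOXA1 rose 3.92-fold, from 0.606 ± 0.153 to 2.38 ± 0.723 FPKM (log2 fold change 1.80 ± 0.27, FDR 0.00387). The call was lost without Ctrl replicate 1 (FDR 0.0156), Ctrl replicate 2 (0.0126), Ctrl replicate 3 (0.0163) or MIR21-KO replicate 2 (0.0173), and with a pseudocount of 1 the log2 fold change was 1.06.

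As FPKM is given per length, levels of paralogs can be set side by side, but only roughly. The length covers the exons of all annotated transcripts, with 3982 bases for FOXA1, 2603 for FOXA2 and 2192 for FOXA3. The level of a gene that uses only part of these exons is understated. This limit also holds for the ratios and the order of levels given below. The sum of the 3 FOXA mRNAs was 19.3 ± 0.974 FPKM in Ctrl and 11.8 ± 0.282 FPKM in MIR21-KO. FOXA2 made up 84.8% ± 0.819 (SD, n = 3) of this sum in Ctrl, against 76.7% ± 5.07 in MIR21-KO. The FOXA3 share was 12.1% ± 1.34 in Ctrl and 3.17% ± 0.966 in MIR21-KO. The FOXA1 share was 2.22%, 3.98% and 3.30% in Ctrl and 16.2%, 17.1% and 27.1% in MIR21-KO, so that FOXA1 took the place of FOXA3 as the second most abundant FOXA mRNA in every MIR21-KO library. None of these quantities overlapped between the groups. The exact two-sided permutation test gave p = 0.1 for each, the smallest value that 3 against 3 libraries allow.

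**Figure D2:**
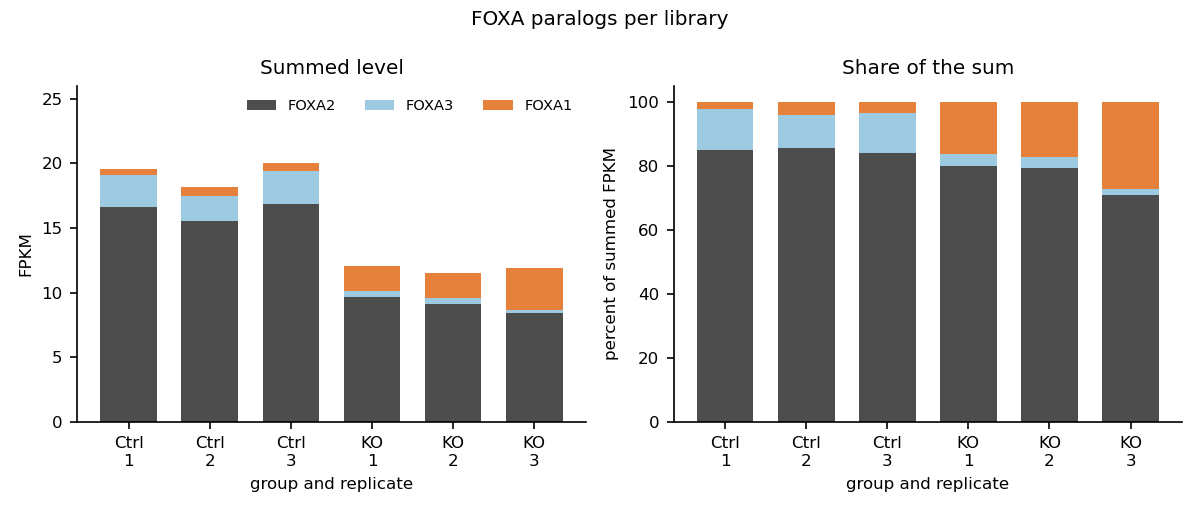
FOXA2, FOXA3 and FOXA1 mRNA in each library, stacked as FPKM (left) and as percent of their sum (right). FOXA2 is the main part in all 6 libraries, and the FOXA1 part is 16.2% to 27.1% in MIR21-KO against 2.22% to 3.98% in Ctrl.

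SOX2 (ENSG00000181449; chromosome 3, 181711924 to 181714436, plus strand), a pluripotency factor that also specifies airway epithelium, was measured at 3.72, 5.03 and 3.72 FPKM in Ctrl. In MIR21-KO it was measured at 0.876, 0.715 and 0.859 FPKM, from 22 to 30 reads against 119 to 136 in Ctrl. The MIR21-KO libraries lay close together and well below Ctrl. SOX2 fell 5.09-fold, from 4.16 ± 0.756 to 0.817 ± 0.0885 FPKM (log2 fold change −2.21 ± 0.17, FDR 0.000325), and with a pseudocount of 1 the log2 fold change was −1.50.

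SOX9 (ENSG00000125398; chromosome 17, 72121020 to 72126420, plus strand), a factor of lung tip progenitors and cartilage, was already abundant in Ctrl at 10.8, 8.70 and 9.22 FPKM. It was measured at 14.3, 15.3 and 16.4 FPKM in MIR21-KO, with 368 to 837 reads per library, and the groups did not overlap. SOX9 rose 1.60-fold, from 9.56 ± 1.09 to 15.3 ± 1.04 FPKM (log2 fold change 0.68 ± 0.10, FDR 0.00404). This call was lost without Ctrl replicate 2 (FDR 0.0192), Ctrl replicate 3 (0.0232) or MIR21-KO replicate 2 (0.0239), and without trend and robust fitting (0.0104).

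The ratio of SOX9 to SOX2 was 2.90, 1.73 and 2.47 in Ctrl and 16.4, 21.3 and 19.1 in MIR21-KO. The ratio of FOXA2 to HNF4A was 3.90 ± 0.254 in Ctrl and 20.3 ± 1.64 in MIR21-KO. Neither ratio overlapped between the groups (exact two-sided permutation test, p = 0.1 for each, the smallest value possible).

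GATA6 (ENSG00000141448; chromosome 18, 22169443 to 22202528, plus strand) was measured at 1.14, 0.896 and 1.15 FPKM in Ctrl and at 1.38, 1.43 and 1.92 FPKM in MIR21-KO. The libraries of the groups did not overlap, but MIR21-KO replicate 3 stood apart from the other MIR21-KO libraries. With 1.06 ± 0.142 against 1.57 ± 0.297 FPKM, the difference was not called (log2 fold change 0.52 ± 0.20, FDR 0.087), nor was it under any alternative setting (FDR 0.0638 to 0.219). Its paralog GATA4, which acts with GATA6 in endoderm and heart, was at 1.08 ± 0.209 FPKM in Ctrl and 1.07 ± 0.137 FPKM in MIR21-KO (FDR 0.982).

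In Ctrl, the order of levels was FOXA2, SOX9, HNF4A, SOX2, FOXA3, GATA6, FOXA1 and HNF4G. HNF4A and SOX2 overlapped in this order, as did FOXA1 and HNF4G, and all other neighbours in it were separated in every library. In MIR21-KO, SOX9 came first, followed by FOXA2, FOXA1, GATA6 and SOX2, each separated from the next. HNF4A, FOXA3 and HNF4G came last and overlapped from one to the next. The sum of the 8 factors was 38.7 ± 1.74 FPKM in Ctrl and 30.2 ± 1.39 FPKM in MIR21-KO.

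**Figure D3:**
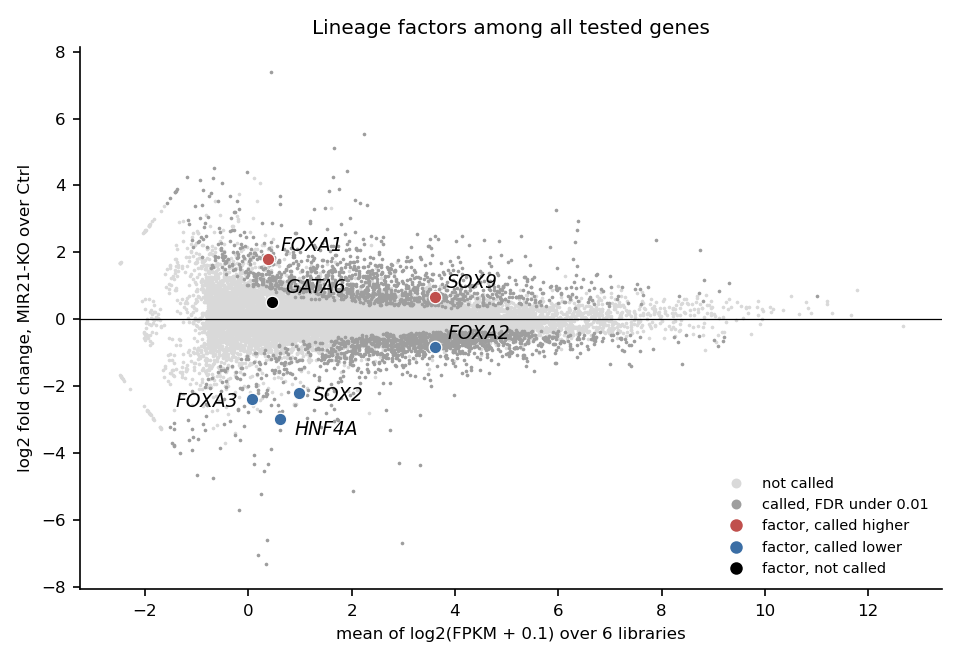
Log2 fold change (y axis, MIR21-KO over Ctrl) against the mean of log2(FPKM + 0.1) over the 6 libraries (x axis) for 16006 tested genes, with called genes in dark grey and the 7 tested factors labelled. HNF4A (−2.97), FOXA3 (−2.37) and SOX2 (−2.21) lie among called genes below 0, and GATA6 lies among genes that were not called.

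Sites for the miR-21-5p seed occurred in factors of either direction. HNF4A and SOX2, which hold a match to all 7 seed bases, were lower in MIR21-KO, and SOX9, with shorter matches, was higher. FOXA1, FOXA2 and FOXA3, without a match, differed in both directions.

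Other genes can share reads with these factors. TTC6 overlaps FOXA1 on the opposite strand by 16 exonic bases and had 1 to 19 reads per library. GATA6-AS1 overlaps GATA6 by 240 exonic bases on the opposite strand with at most 8 reads, and AC091588.3 by 321 exonic bases with 1 to 11 reads and a log2 fold change of −0.10 (FDR 0.931). AL121722.1 overlaps FOXA2 on the same strand by 70 exonic bases and was listed at 0 in all 6 libraries, but strand cannot separate its reads from those of FOXA2. SOX2 lies within an intron of SOX2-OT, which had at most 2 reads, and SOX9-AS1 had at most 11. Reads shared between FOXA or SOX paralogs could not be assessed. A list of 16 neighbouring or overlapping genes, which did not include AC091588.3 and AL121722.1, was also examined. Of these 16, 6 were tested and none was called by limma. By voom on recovered reads 1 was called, as were 21.8% of all tested genes. Of all 16006 tested genes, 6910 had an unadjusted p under 0.05 by limma, as had 2 of these 6. These were the non-coding LINC01152 near SOX9, at 0.600 ± 0.157 and 1.42 ± 0.180 FPKM (log2 fold change 1.13, FDR 0.0121, called by voom with an FDR of 0.00335), and SYMPK near FOXA3 (−0.37, FDR 0.0249). IRF2BP1, MIB1, ZFHX4 and FITM2 had log2 fold changes of −0.22, −0.28, −0.23 and −0.06 and FDRs of at least 0.259.

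Among 39 other factors of endoderm, lung, liver and gut lineages, 19 were tested, 5 fell, 2 rose and 12 were not called. Calls thus made up 36.8% of those tested, against 16.0% of all tested genes, in a list chosen with earlier results known. The median log2 fold change of those tested was 0.10. NR5A2, a nuclear receptor of liver, pancreas and gut, fell 8.34-fold from 9.17 ± 0.576 to 1.10 ± 0.274 FPKM (FDR 0.000145).

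SPDEF, a factor of goblet cells, was at 1.52, 1.60 and 1.83 FPKM in Ctrl and at 0.153, 0 and 0.121 FPKM in MIR21-KO (FDR 0.00267, log2 fold change −3.30, or −1.28 with a pseudocount of 1). ID2, an inhibitor of helix-loop-helix factors in lung tips, fell from 22.2 ± 1.27 to 8.84 ± 1.23 FPKM (FDR 0.000472). The epithelial ETS factor ELF3 also fell (−0.96, FDR 0.00333), as did its relative EHF (−1.17, FDR 0.00595), which was named after its values were seen. SOX4 rose from 22.3 ± 0.506 to 40.8 ± 4.19 FPKM (0.87, FDR 0.000913), and SOX7, an endoderm and endothelial factor, rose from 0.255 ± 0.0631 to 1.17 ± 0.148 FPKM (1.85, or 0.79 with a pseudocount of 1, FDR 0.00473). SPDEF passed the filter on low values through Ctrl and SOX7 through MIR21-KO, and with a minimum of 1 FPKM neither was tested and 5 factors were called. The most abundant factors not called were CEBPB, an acute phase regulator (0.54, FDR 0.0381), TBX3 (0.10, FDR 0.562) and the ETS factor ETV4 (0.28, FDR 0.116). Without MIR21-KO replicate 2, 4 of the 19 were called, and without Ctrl replicate 1, 2 or 3, 3 were called. The calls of SPDEF (FDR 0.018 to 0.0221), EHF (0.0222 to 0.0291) and ELF3 (0.0168 to 0.0195) were lost without any 1 of the Ctrl libraries, those of EHF and ELF3 also without MIR21-KO replicate 2, and that of SOX7 without any 1 of the 6 libraries (0.0133 to 0.0349).

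Of 51 genes of liver and gut endoderm, many of them known targets of these factors, 41 were under 0.5 FPKM on average and 14 had no read in any library. Of the 10 tested, 5 fell, 1 rose and 4 were not called, with a median log2 fold change of −1.30. The called share was 60%, against 16.0% of all tested genes, again in a list chosen with earlier results known. AGR2, a protein disulfide isomerase of mucus-secreting cells, fell 10.0-fold from 21.1 ± 3.05 to 2.10 ± 0.689 FPKM (log2 fold change −3.30 ± 0.23, FDR 0.000222). TM4SF4, a membrane protein of liver and intestine, fell 8.71-fold from 9.43 ± 0.662 to 1.08 ± 0.045 FPKM (FDR 2.5e-05).

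CPS1, the entry enzyme of the urea cycle, fell 8.83-fold from 2.12 ± 0.112 to 0.240 ± 0.0259 FPKM (FDR 0.000304), passing the filter through Ctrl, with a log2 fold change of −2.71 or, with a pseudocount of 1, −1.33. The mucin MUC13 fell from 8.39 ± 0.271 to 2.83 ± 0.325 FPKM (FDR 0.000224). APOH, a plasma glycoprotein of liver that was named after its values were seen, fell from 6.04 ± 0.279 to 0.727 ± 0.281 FPKM (FDR 0.000363). VTN, which encodes the plasma protein vitronectin, rose from 4.35 ± 0.754 to 13.4 ± 3.01 FPKM (log2 fold change 1.59, FDR 0.00192). The call of VTN was lost without Ctrl replicate 1 (FDR 0.0108) or MIR21-KO replicate 2 (0.0138). Coagulation factor F12 (0.07, FDR 0.781), AMBP (−0.19, FDR 0.634) and the retinol carrier RBP4 (−0.86, FDR 0.0386) were not called.

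Of 34 lung epithelial genes, 12 had no read in any library and 27 were not tested, including those of surfactant proteins. Of the 7 tested, 3 fell, 1 rose and 3 were not called, with a median log2 fold change of 0.18. The called share was 57.1%, against 16.0% of all tested genes, and this list was chosen in the same way. DMBT1, a secreted scavenger receptor of mucosal surfaces, rose 11.2-fold from 0.670 ± 0.0957 to 7.49 ± 0.645 FPKM (log2 fold change 3.30 ± 0.14, FDR 4.4e-05). MUC5AC, a secreted airway mucin, fell from 1.75 ± 0.261 to 0.0220 ± 0.00326 FPKM (−3.91, FDR 0.000781), at 4 reads in its lowest library. Its log2 fold change was −1.42 with a pseudocount of 1 and −6.17 by voom. It passed the filter through Ctrl, and with a minimum of 1 FPKM it was not tested and 3 lung epithelial genes were called. This call was lost without Ctrl replicate 1 (FDR 0.0132) or Ctrl replicate 3 (0.013).

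LPCAT1, which makes surfactant lipid, fell from 11.6 ± 1.002 to 3.08 ± 0.638 FPKM (−1.90, FDR 0.000392). Caveolin CAV1 fell from 142.9 ± 2.80 to 96.4 ± 4.38 FPKM (−0.57, FDR 0.00218). ABCA3, the lipid transporter of lamellar bodies (0.45, FDR 0.0126), MUC1 (0.66, FDR 0.021) and the aspartic protease NAPSA (0.18, FDR 0.674) were not called. Without Ctrl replicate 1 or Ctrl replicate 3, 2 of the 7 were called. The call of CAV1 was lost without any 1 of the Ctrl libraries or MIR21-KO replicate 2 (FDR 0.0158 to 0.0178).

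Of 20 partners and inhibitors of these factors, 11 were tested, 2 rose, 1 fell and 8 were not called, with a median log2 fold change of 0.38. The called share was 27.3%, against 16.0% of all tested genes. HES1, a Notch-driven repressor, rose from 4.50 ± 0.893 to 15.1 ± 1.74 FPKM (1.74, FDR 0.000627). The Groucho corepressors moved apart, as TLE1 fell from 21.3 ± 1.002 to 9.40 ± 1.07 FPKM (−1.17, FDR 0.000472) and TLE3 rose from 2.10 ± 0.323 to 4.13 ± 0.208 FPKM (0.95, FDR 0.00351). The TLE3 call was lost without Ctrl replicate 1, 2 or 3 (FDR 0.0119 to 0.0138), and likewise for MIR21-KO replicate 1 (0.010) or 2 (0.023). The acetyltransferases EP300 (−0.39, FDR 0.267) and CREBBP (−0.09, FDR 0.660) and the coactivator NCOA2 (−0.34, FDR 0.273) were not called.

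**Figure D4:**
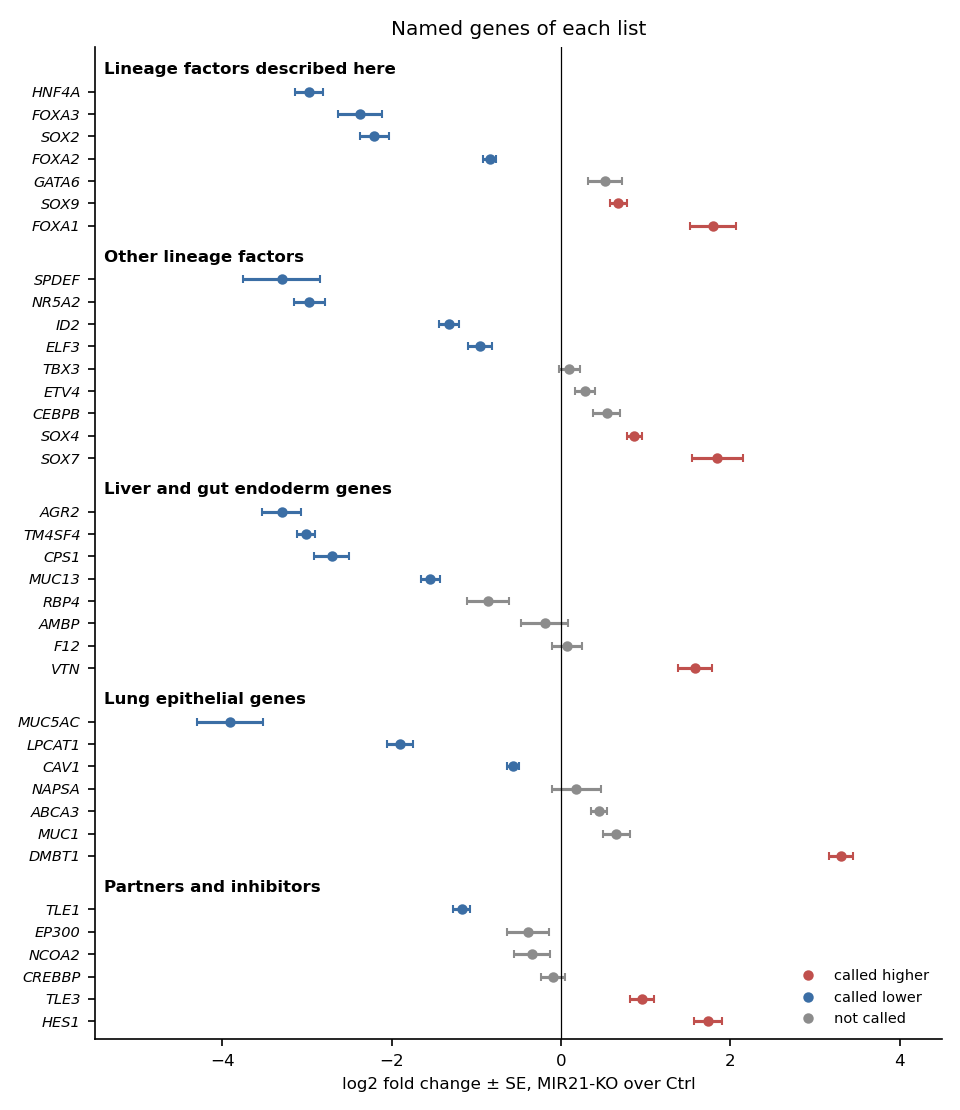
Log2 fold change (x axis, MIR21-KO over Ctrl, on log2(FPKM + 0.1)) with SE for the 7 tested factors and the named genes of 4 related lists. MUC5AC (−3.91) lies farthest to the left and DMBT1 (3.30) farthest to the right, and AGR2, TM4SF4 and HNF4A lie between −3.30 and −2.97.

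Over the 6 libraries, the tested gene whose log2(FPKM + 0.1) was most like that of HNF4A was MGLL (Pearson r 0.9995), followed by LDHA and PRAG1. For SOX2 it was PPL (0.9996), followed by KNSTRN and PIGA, and for FOXA2 it was HGD (0.9995), followed by CYB5B and BNIP3. FOXA3 was most like RSL1D1 (0.9984), FBRSL1 and FZD8. FOXA1 was most like TMEM165 (0.9959), AF127936.9 and BTN2A2. SOX9 was most like ZBTB4 (0.9989), GLG1 and THNSL1, and GATA6 was most like CAMK1D (0.9967), RCAN3 and ANKRA2. With 6 libraries in 2 groups, these values mainly follow the difference between the groups, and they are the highest of 16006 genes compared.

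**Figure D5:**
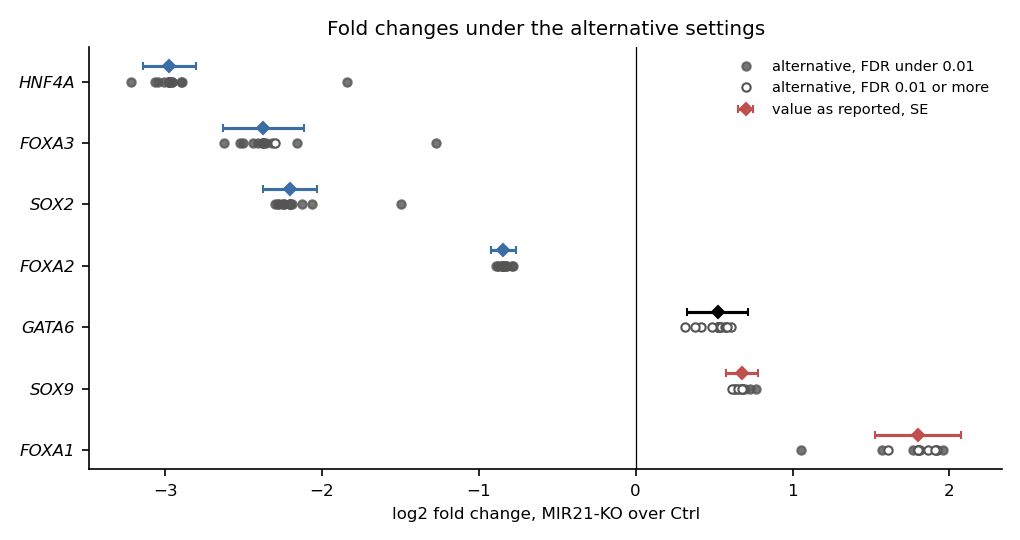
Log2 fold change (x axis, MIR21-KO over Ctrl) of the 7 tested factors as reported, with SE (diamonds), and under each alternative setting (circles, filled where the FDR was under 0.01). No factor changed direction, and the points nearest to 0 for HNF4A (−1.84) and FOXA3 (−1.27) are those with a pseudocount of 1.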

How the data were processed

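PolyA RNA-seq of 6 A549 libraries was analysed, grouped by sample title. Per the labels, libraries were strand-specific and sequenced on a HiSeq instrument. The authors deposited FPKM per gene with gene lengths, and columns of their own log2 fold changes, p-values and FDRs, which were not used. The submitters' processing notes name cutadapt 1.14, HISAT2 2.1.0, SAMtools 1.5, featureCounts 1.5.3, edgeR 3.18.1 and hg38. The strand setting and the handling of reads shared by genes are not given in the sources used here. FPKM times length gave whole reads (tolerance 0.001) for 100% of values, and the implied library sizes were 0.950 to 1.03 times the read totals, so a scaling had been applied. All 37 mitochondrial genes were listed at 0, so a listed 0 can reflect processing. File symbols were matched by identifier to GENCODE 29 (57836 of 58174).

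With limma 3.58.1 (R 4.3.3), log2(FPKM + 0.1) was compared for genes of at least 0.5 FPKM on average (trend and robust empirical Bayes, two-sided), with Benjamini-Hochberg adjustment over 16006 genes and calls at an FDR under 0.01. Sums, shares and ratios were compared by exact permutation tests (scipy 1.17.1). Fits were also run on simulated counts with a fixed spread between libraries and fewer changed genes than were called here. That run therefore does not measure error rates for these libraries. Named were all 8 factors; in each list the 4 called genes of lowest FDR per direction and the 3 most abundant genes not called; tested neighbours; and the 3 genes most like each factor. Some genes of the lists and 1 promoter motif are not reported here. Members and lists were chosen with earlier results of these data known. Alternatives were a pseudocount of 1, no filter, a minimum of 1 FPKM, median-ratio scaling, scaling by total reads, limma without trend and robust fitting, voom on recovered reads, the replicate number as a block, each library left out, and an FDR under 0.05. A count of 0 allows up to 3 reads, which covers counting error only. Every pair of libraries of a group differed by more than sampling noise (chi-square per degree of freedom 2.69 to 32.8).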

Additional observations from a re-analysis of the deposited data

How the results depend on the processing

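Of 48 named genes with values, the 7 tested factors and all called genes among them kept their direction under every alternative that gave a value. With a minimum of 1 FPKM 43 had one, and the called genes SOX7, SPDEF and MUC5AC had none. Of genes not called, F12, AMBP, ZFHX4, CREBBP and GATA4 changed sign in at least 1 setting. The calls of HNF4A, FOXA2 and SOX2 were kept under all of them. Leaving out 1 library at a time gave 3 to 6 called factors against 6 in the full set, the fewest without Ctrl replicate 3, where FOXA2, HNF4A and SOX2 remained. The corresponding ranges were 768 to 3400 of all genes against 2568, 3 to 7 other lineage factors against 7, and 2 to 4 lung epithelial genes against 4. The largest loss over all genes was without MIR21-KO replicate 2 (768), followed by Ctrl replicate 3 (873), Ctrl replicate 1 (895) and Ctrl replicate 2 (922). An FDR under 0.05 gave 5114 calls. The median log2 fold change of all genes shifted by 0.018 with median-ratio scaling and by −0.035 with scaling by total reads.

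Deviations of same-numbered libraries from their group means correlated at −0.171, −0.018 and −0.017, and those of differently numbered libraries at −0.13 to 0.155. With 3 libraries per group, these values cannot show whether cultures of the same number were handled together. With the replicate block, 651 genes, 4 factors and 3 other lineage factors were called, and FOXA1 (FDR 0.0124) and SOX9 (0.0246) were not. Few reads lie behind HNF4G (7 to 47) and the MIR21-KO values of FOXA3 (7 to 14). The causes of these changes were not tested.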
